A study of Mus musculus with 6 samples.

Results

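The 40 genes described here are type I interferon response genes, a fixed list of mouse gene symbols looked up in the deposited expression table of 34745 genes. All 40 symbols were found, each on 1 row, and all 40 passed the filter on low values that 13417 genes passed. The table comes from tumours that grew after Hep1-6 cells, a mouse hepatoma line, were injected under the skin of C57BL/6J mice. In the HCD group the host mice were fed a high cholesterol diet (3 tumours), and in the ND group a normal diet (3 tumours). The host strain and the injected line are common to both groups, and the age and sex of the mice and the length of feeding are not given in the sources used here. Whether the tumours of a diet grew in separate mice is not stated, and the p-values therefore speak only of the spread among the 6 samples, which may be technical. A whole tumour holds Hep1-6 cells and host cells together, so a lower value of a gene can come from fewer cells of a type or from less RNA per cell, and these cannot be told apart.

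Type I interferons are secreted proteins that signal through a receptor of the chains Ifnar1 and Ifnar2 and the kinases Jak1 and Tyk2. Stat2 and Irf9 are then part of a complex that binds the interferon-stimulated response element, a short repeat in the promoters of antiviral genes. The same genes can also answer to interferon gamma and to direct sensing of nucleic acids, and in tumours they are known from both cancer cells and infiltrating leukocytes. C57BL/6 mice are known to carry defective alleles of Mx1 and Oas1b, so transcript levels of these genes do not stand for working protein.

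The binding element is visible in the promoters of part of the list. RefSeq promoters (GRCm38.p6, 250 bases before to 50 bases after a start) were matched by symbol for 28 of the 40 genes, with 33 starts. The core searched was GAAA, any 2 bases, then GAAA, on both strands, with overlapping matches counted separately. It was present in 15 of these 33 promoters (45.5%), against 3.44% of all 32851 promoters of the same length. The 14 genes with a match were Ifit1, Ifit3, Isg15, Oas1a, Oas1g, Oas3, Rsad2, Stat2, Ddx58, Ifih1, Bst2, Trim30a, Eif2ak2 and Ifitm3, and in 10 of them a match lay wholly before the start. The letters TTC, any 3 bases, then GAA, the core of the interferon gamma activated site, were in 7 of the 33 promoters, against 8.3% of all promoters. A match is a description of the letters and not of a bound site. The sequences of 6 of the 10 genes are shown because they let the shared repeat be read directly beside genes whose values follow. Each is a 40-base stretch before the start, 5′ to 3′ on the strand of the gene, with the matches in capitals; TTTC, any 2 bases, then TTTC is the same core read on the other strand.
Isg15, chr4:156200860-156200899, minus strand: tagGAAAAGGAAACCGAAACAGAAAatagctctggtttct
Bst2, chr8:71537572-71537611, minus strand: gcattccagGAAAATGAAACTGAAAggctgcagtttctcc
Stat2, chr10:128270261-128270300, plus strand: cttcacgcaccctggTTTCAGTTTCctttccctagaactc
Ifit3, chr19:34583392-34583431, plus strand: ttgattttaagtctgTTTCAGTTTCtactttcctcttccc
Oas1a, chr5:120907526-120907565, minus strand: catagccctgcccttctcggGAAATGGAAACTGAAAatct
Oas1g, chr5:120887614-120887653, minus strand: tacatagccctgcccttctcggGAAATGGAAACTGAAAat
Isg15 held 3 overlapping matches in its stretch, and Bst2, Oas1a and Oas1g held 2 each. The stretches of Oas1a and Oas1g are the same letters shifted by a few bases, and these genes are closely related copies whose reads may be split between them, so their separate values are uncertain.

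No gene of the list was called in the comparison of HCD with ND tumours, which asks how the host's dietary cholesterol bears on tumour transcripts. Levels are in FPKM, fragments per kilobase of gene scaled to library size. The limma fit on log2(FPKM + 1) over all tested genes called 0 of 40 members at an adjusted p of 0.05, and it called 0% of all 13417 genes. The lowest adjusted p of a member was 0.794 (Usp18). At an unadjusted p under 0.05 there were 0 members, against 5.88% of all tested genes, and limma-voom on recovered reads also gave 0 members called and 0 at an unadjusted p under 0.05. The mean log2 value was higher in HCD for 33 members (82.5%) and lower for 7, and it was higher for 55.7% of all tested genes. A higher or lower mean refers to this mean of log2 values throughout. The median log2 difference, HCD minus ND, was 0.13 for the list and 0.02 for all tested genes. Only 1 of the 40 differences was larger than the gene's own SD within the diet groups, against 34.3% of all tested genes. The tumour libraries ND 1 and HCD 2 stood apart, ND 1 being lowest and HCD 2 highest for most members.

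**Figure D1:**
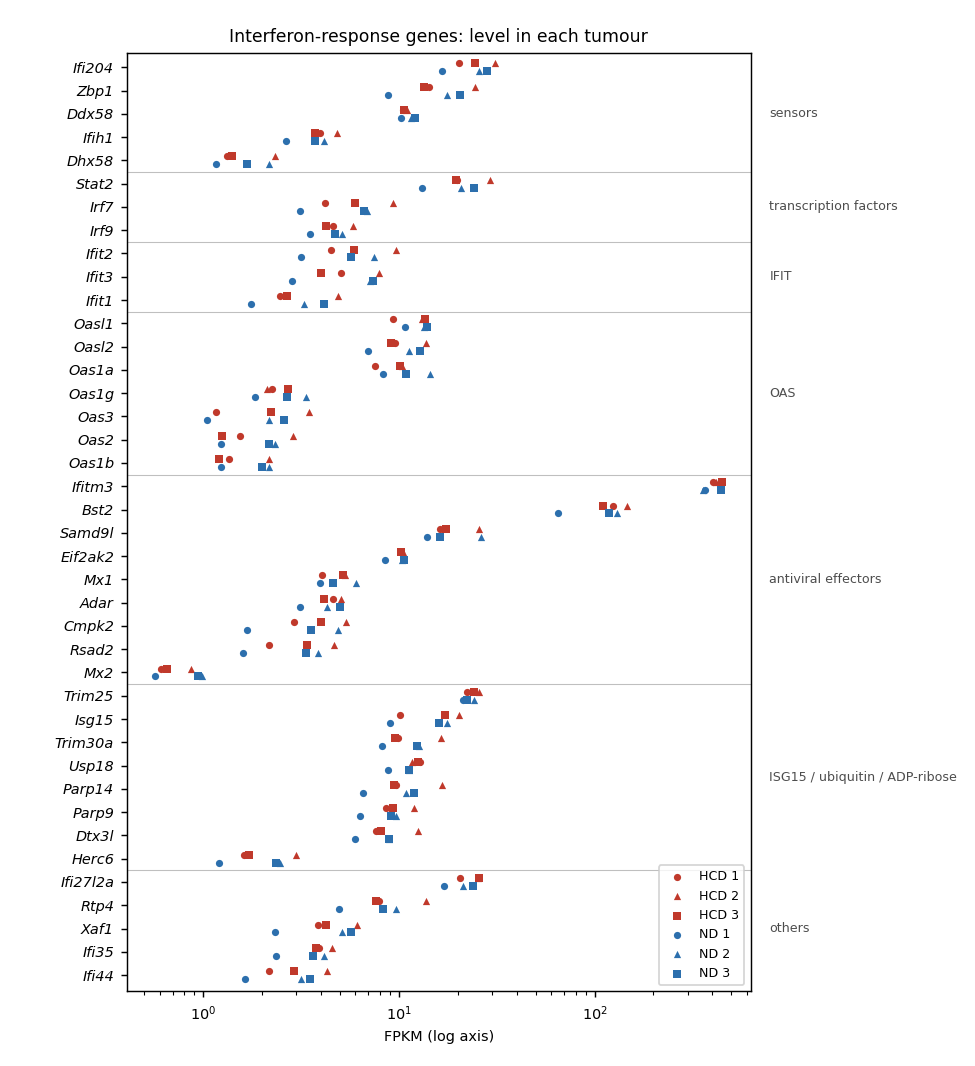
FPKM (log axis) of each of the 40 genes in each tumour, grouped by role, with HCD in red and ND in blue and 1 symbol per replicate number. Levels run from a mean of 0.773 FPKM for Mx2 to 406 FPKM for Ifitm3, and the blue circle, ND 1, is the lowest point for 36 of the 40 genes.

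Expression of the list spanned a wide range of levels, and almost all members were well covered by reads. FPKM values can be set side by side between genes as far as the gene lengths used by the authors hold. Those lengths, read back from the value steps, were 0.738 to 2.15 times the exon length in GENCODE M21. A mean of 10 FPKM or more was reached by 17 members, 22 lay between 1 and 10 FPKM, and 1 lay below 1 FPKM. That member, Mx2, had between 42 and 88 recovered reads in a library, while Ifitm3 had 5540 to 6394.

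Among the nucleic acid sensors, 4 of 5 had a higher mean in HCD, with a median log2 difference of 0.12. Ifi204, a member of the interferon-inducible family that includes DNA sensors (GRCm38 chromosome 1, 173747293 to 173766943), was at 20.4, 31.1 and 24.6 FPKM in HCD 1 to HCD 3, against 16.6, 25.6 and 28.1 FPKM in ND 1 to ND 3. Zbp1, a sensor of Z-form nucleic acids that can start necroptosis, was at 14.2, 24.5 and 13.4 FPKM in HCD tumours and at 8.8, 17.7 and 20.5 FPKM in ND tumours. For both genes the diets overlapped, with ND 1 lowest and HCD 2 highest, and the log2 differences were 0.12 (95% interval -0.43 to 0.68) and 0.17 (-0.68 to 1.02). Ifih1, which encodes the double-stranded RNA sensor MDA5, was at 3.98, 4.85 and 3.74 FPKM in HCD tumours and 2.64, 4.14 and 3.73 FPKM in ND tumours, the widest difference of the sensors at 0.21 (adjusted p = 0.795). Ddx58, which encodes the RNA sensor RIG-I, barely varied at all: 10.5, 11 and 10.6 FPKM in HCD and 10.3, 11.5 and 12.1 FPKM in ND. Its difference of -0.07 had an interval of -0.24 to 0.10, among the narrowest of the list. Dhx58, which encodes LGP2, a partner of these sensors, averaged 1.68 ± 0.552 FPKM in HCD and 1.67 ± 0.501 FPKM in ND (SD, n = 3 each).

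All 3 transcription factors had a higher mean in HCD, with a median difference of 0.20 and none called. Stat2, the signal transducer specific to type I and type III interferons (chromosome 10, 128270559 to 128292849), was at 19.8, 29.3 and 19.6 FPKM in HCD tumours and at 13.1, 20.9 and 24.1 FPKM in ND tumours. HCD 1 and HCD 3 thus lay below ND 2 and ND 3, and the difference of 0.25 (SE 0.253, adjusted p = 0.836) went with the high HCD 2 and the low ND 1. Irf7, which amplifies interferon production, showed this pattern more widely, with 4.19, 9.39 and 5.94 FPKM in HCD and 3.13, 6.88 and 6.62 FPKM in ND. Its ratio of HCD 2 to ND 1 was 3, against a log2 difference between the diets of 0.20 (interval -0.63 to 1.02). Irf9, the DNA-binding part of the complex with Stat2, differed by 0.11, with means of 4.89 ± 0.855 FPKM in HCD and 4.45 ± 0.828 FPKM in ND (SD, n = 3 each).

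Some, but not all, IFIT proteins bind RNA that lacks a host-type cap and block its translation. The 3 genes lie together on chromosome 19 (34550694 to 34650009). Ifit2 was at 4.50, 9.72 and 5.89 FPKM in HCD tumours, against 3.17, 7.46 and 5.73 FPKM in ND tumours. Ifit3 was at 5.07, 7.91 and 4 FPKM in HCD tumours, against 2.86, 7.10 and 7.36 FPKM in ND tumours. The diets overlapped almost completely for both. Ifit2 differed by 0.26 (interval -0.55 to 1.07) and Ifit3 by 0.02 (-0.85 to 0.88). Ifit3 had the widest spread within diets of the list, an SD of 0.538 on the log2 scale. Ifit1 differed by 0.10, with ND 1 lowest and HCD 2 highest here too.

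The OAS genes were the one role group in which most means were lower in HCD, 5 of 7, with a median difference of -0.09; whether this differs from the other groups was not tested. Active OAS enzymes make oligoadenylates that activate RNase L, which does not hold for every gene of this group. All 7 genes lie on chromosome 5. Oas1a was at 7.53, 10.4 and 10.2 FPKM in HCD tumours and at 8.31, 14.4 and 10.9 FPKM in ND tumours. Its difference of -0.21 was the largest on the lower side (interval -0.71 to 0.28, adjusted p = 0.827), with HCD 1 lowest and ND 2 highest. The most abundant were the OAS-like genes Oasl1 and Oasl2. Oasl1, known in mice to hold back Irf7 translation, was at 9.35, 13.2 and 13.6 FPKM in HCD tumours and 10.8, 13.4 and 14.0 FPKM in ND tumours. Oasl2 was at 9.54, 13.8 and 9.16 FPKM in HCD tumours and 6.94, 11.3 and 12.9 FPKM in ND tumours. Their differences of -0.09 and 0.07 were smaller than the spread within diets. Oas3 had the highest ratio of HCD 2 to ND 1 of all 40 genes, 3.31, but a difference between diets of 0.14. Oas1b, Oas1g and Oas2 differed by -0.12, -0.09 and -0.03.

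Ifitm3 and Bst2 were the most abundant members. Ifitm3, a membrane protein that blocks virus entry (chromosome 7, 141009586 to 141010770), was at 401, 417 and 450 FPKM in HCD tumours and at 366, 360 and 444 FPKM in ND tumours. ND 3 lay near the top of the HCD range, and the difference was 0.12 (interval -0.12 to 0.36, adjusted p = 0.806). Bst2, or tetherin, with 2 core matches in its promoter stretch, holds budding virus at the cell surface (chromosome 8, 71534255 to 71537456). It was at 125, 147 and 111 FPKM in HCD tumours and at 65.3, 131 and 119 FPKM in ND tumours. Bst2 had the largest difference of the list, 0.33 (interval -0.32 to 0.98, adjusted p = 0.806), and ND 2 and ND 3 lay inside the HCD range. Without ND 1 the Bst2 difference was 0.02. Of the 9 antiviral effectors, 8 had a higher mean in HCD, with a median difference of 0.12. Cmpk2, a mitochondrial nucleotide kinase, and its neighbour Rsad2, which encodes viperin, differed by 0.27 and 0.18 and had ratios of HCD 2 to ND 1 of 3.19 and 2.93. Eif2ak2, which encodes the kinase PKR that halts translation on double-stranded RNA, averaged 10.3 ± 0.105 FPKM in HCD and 9.84 ± 1.12 FPKM in ND (SD, n = 3 each). Samd9l, a restriction factor, differed by 0.08, the RNA editing enzyme Adar by 0.14, and the antiviral GTPases Mx1 and Mx2 by 0.01 and -0.10. The sign for Mx1, and for the sensor Dhx58, turned under both scaling alternatives and in limma-voom.

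Usp18 was the only member whose diets did not overlap. It encodes the protease that removes Isg15 from proteins and dampens signalling at the interferon receptor (chromosome 6, 121245906 to 121270917). It was at 12.8, 11.7 and 12.6 FPKM in HCD tumours and at 8.84, 11.3 and 11.3 FPKM in ND tumours. All 3 HCD libraries lay above all 3 ND libraries, as they did in 5.98% of all tested genes, with the opposite order in 6.13%. The log2 difference was 0.23 (SE 0.102, interval -0.02 to 0.48, unadjusted p = 0.0655 and adjusted p = 0.794 by limma), and the gap between the closest libraries was small. A count of 1 in 40 does not exceed that share.

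The other genes of the ISG15, ubiquitin and ADP-ribose system also had higher means in HCD, 8 of 8 with Usp18, at a median difference of 0.18. Isg15, the ubiquitin-like modifier whose promoter stretch held 3 core matches, was at 10.2, 20.3 and 17.2 FPKM in HCD tumours and at 9.02, 17.7 and 16 FPKM in ND tumours. Each diet thus held 1 low and 2 high tumours, and the difference was 0.15 (interval -0.63 to 0.92). Trim25, a ubiquitin ligase that acts on RIG-I, was steady at 22.2, 25.7 and 24.1 FPKM in HCD tumours and 21.4, 24.1 and 22.3 FPKM in ND tumours. Parp14, an ADP-ribosyltransferase (chromosome 16, 35832874 to 35871544), had the largest difference of this group, 0.25, with 9.72, 16.7 and 9.46 FPKM in HCD tumours and 6.60, 10.9 and 11.9 FPKM in ND tumours. Its neighbours Parp9 and Dtx3l, whose products form a complex, differed by 0.24 and 0.22, Trim30a, a TRIM-family gene, by 0.08, and Herc6, the main ligase for Isg15 in mice, by 0.05. Parp9 and Dtx3l overlap on opposite strands, as do Irf7 and Phrf1, and Rtp4 and Masp1, while Irf9 overlaps Rnf31 on the same strand. Counting by strand is not stated, so reads of these pairs may not be separated.

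The remaining 5 genes all had higher means in HCD, with a median difference of 0.20. Ifi27l2a was at 20.6, 25.5 and 25.7 FPKM in HCD tumours and 17.1, 21.4 and 23.9 FPKM in ND tumours. Rtp4, an interferon-inducible chaperone of membrane receptors (chromosome 16, 23520291 to 23614222), was at 7.93, 13.8 and 7.66 FPKM in HCD tumours and 4.95, 9.70 and 8.26 FPKM in ND tumours. The diets overlapped for both genes and ND 1 was lowest for both. The differences of 0.20 for Ifi27l2a and 0.32 for Rtp4 (interval -0.38 to 1.02, adjusted p = 0.824) each became 0.07 without ND 1. Ifi35, Ifi44 and Xaf1, a partner of XIAP, differed by 0.23, 0.14 and 0.13.

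**Figure D2:**
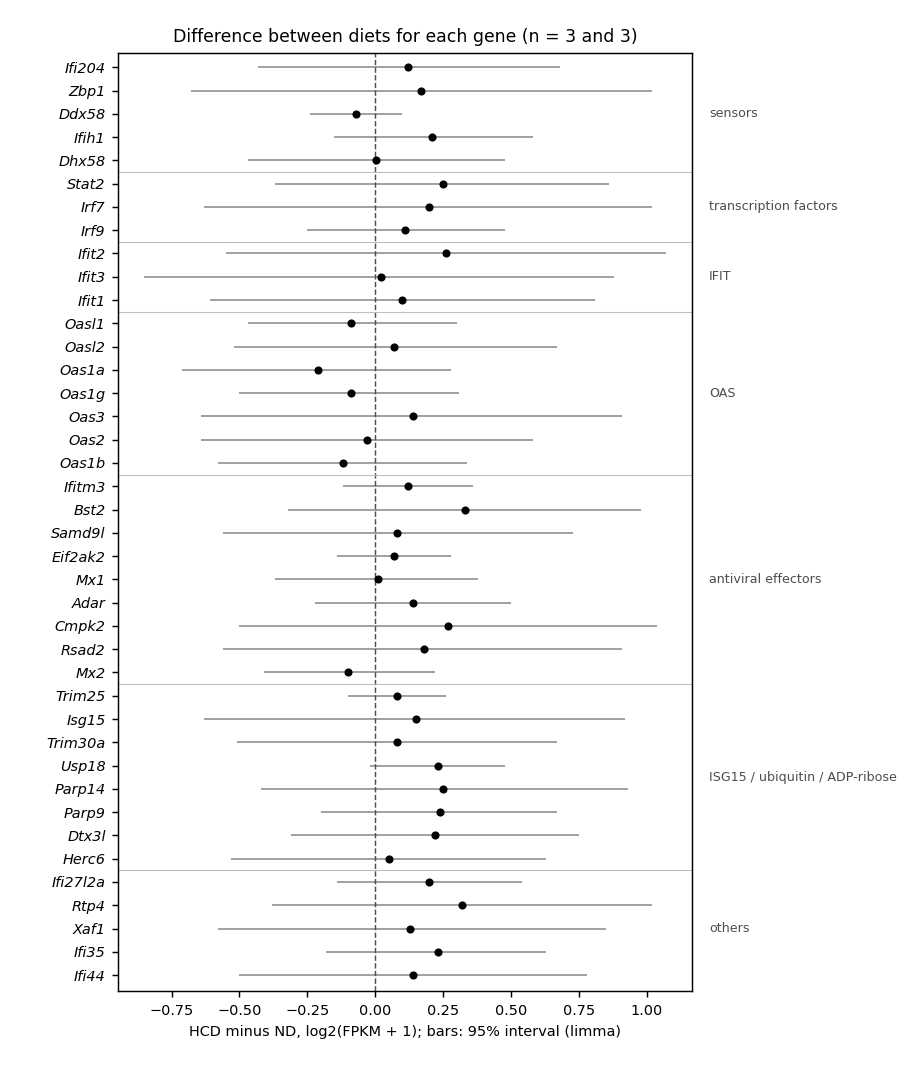
Difference between HCD and ND tumours for each gene on the log2(FPKM + 1) scale, with 95% intervals from limma (n = 3 each). All 40 intervals include 0, and the highest bound is 1.07 (Ifit2).

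The intervals set what these 6 tumours can say about the list. Their median half-width was 0.568 on the log2 scale for the members and 0.233 for all tested genes. For 35 members the whole interval lay within 1 of no change on the log2(FPKM + 1) scale, and the other intervals reached at most 1.07. This scale understates changes of low genes, so a 2-fold change in FPKM is not excluded for each of the 35. The intervals are per gene and not adjusted for the number of genes tested. With 3 tumours per diet, a difference below its half-width could not be called. A difference above it was not thereby called, since calls used the adjusted p. Over all tested genes the lowest unadjusted p by limma was 1.03e-05, and the lowest adjusted p was 0.138.

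Tumours of the same diet differed from each other, and this spread was shared by nearly the whole list. Within ND, ND 1 lay below ND 2 for 39 members and below ND 3 for 40. Within HCD, HCD 2 lay above HCD 1 for 38 members and above HCD 3 for 35. Counts and ratios that join ND 1 and HCD 2 cross the diets, so they do not separate this spread from a diet difference. ND 1 was the lowest library for 36 of 40 members (90%), against 27% of all tested genes. HCD 2 was the highest for 29 members (72.5%), against 24% of all tested genes. Both held together for 28 members (70%), against 11.9% of all tested genes. The median SD within diets was 0.349 for the list and 0.118 for all tested genes. The ratio of HCD 2 to ND 1 had a median of 1.99 over the list and 1.02 over all tested genes with values above 0. It was 1.5 or more for 30 members (75%) and for 14.7% of all tested genes. Members differed in how far they followed the pattern. Oas3, Cmpk2, Ifit2 and Irf7 had ratios of 3.31, 3.19, 3.07 and 3, while Ddx58, Oas1g, Ifitm3 and Trim25 had ratios of 1.07, 1.14, 1.14 and 1.2.

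**Figure D3:**
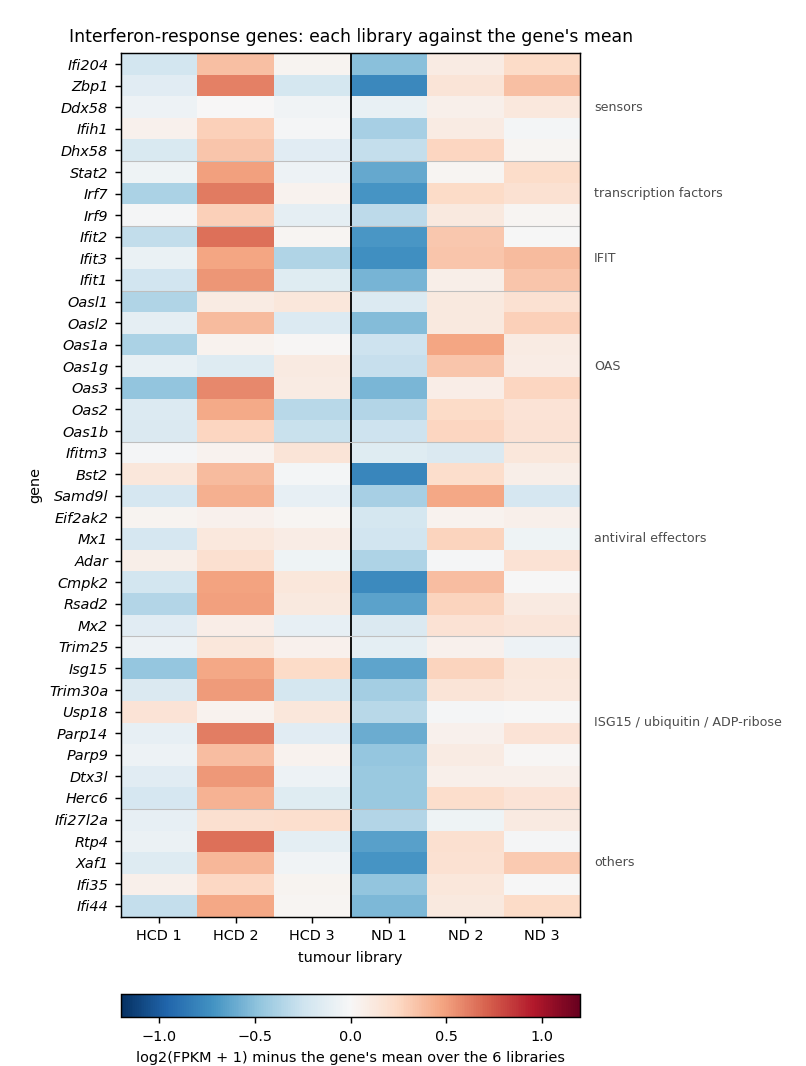
Each cell is the log2(FPKM + 1) value of a gene in a library minus that gene's mean over the 6 libraries, with HCD libraries left of ND libraries. HCD 2 is above the gene's mean for 39 of 40 genes and ND 1 for 0 of 40, while HCD 1 is above it for 6, HCD 3 for 19, ND 2 for 36 and ND 3 for 31.

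The direction between the diets therefore depended on which tumours were used. The median difference of 0.13 became -0.10 without ND 1 and -0.04 without HCD 2, with 12 and 15 members higher in HCD in place of 33. Without ND 1 alone, the differences of Stat2, Parp14 and Dtx3l became 0.0037, 0.02 and 0.05, in place of 0.25, 0.25 and 0.22, and that of Ifih1 became 0.07 in place of 0.21. Without ND 1 and HCD 2 together, a pair picked with earlier results of these data known, 37 members were lower in HCD (92.5%, against 50.9% of all tested genes), with a median of -0.26. Leaving out the ND library that was lowest and the HCD library that was highest for most members lowers their differences by construction, so this value shows how far the direction rests on those libraries and is no measure of diet; 0 members were called in that fit. The 3 members that stayed higher were Ifi27l2a, Ifitm3 and Usp18, at 0.02, 0.09 and 0.16. Without ND 2 and HCD 1 together, the libraries high in skeletal muscle genes, 39 members were higher in HCD. The median over the list was then 0.32, against 0.02 for all tested genes, and 0 members were called. HCD 1 lay above the gene's mean for 6 of 40 members and ND 2 for 36. Leaving them out raises most differences by construction, so this value too is no measure of diet. Summed levels of 5 muscle markers were 739, 71.1 and 5.93 FPKM in HCD 1 to HCD 3 and 4.64, 628 and 10.8 FPKM in ND 1 to ND 3, and the part of muscle tissue in the values was not tested. Usp18 kept a positive sign in each of these fits.

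**Figure D4:**
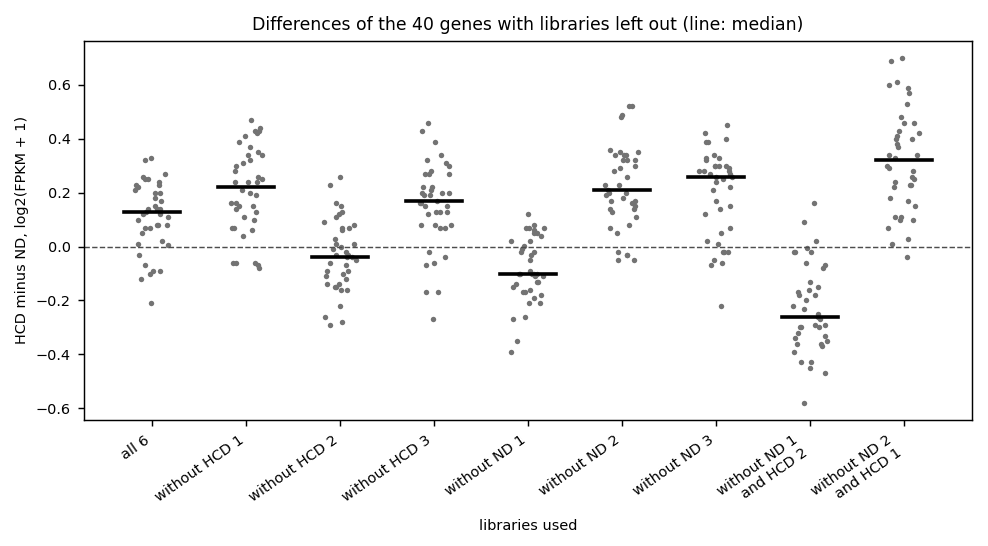
Log2 differences, HCD minus ND, of the 40 genes with all 6 libraries and with 1 or 2 libraries left out; the line is the median. The median runs from -0.26 without ND 1 and HCD 2 to 0.32 without ND 2 and HCD 1.

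Genes upstream of the list varied less, and the interferons themselves were near 0. Of 18 type I interferon genes, 0 reached the level for testing. Ifnb1 and 11 of the interferon alpha genes were listed at 0 in all 6 libraries, 12 genes in all, and the highest value was 0.419 FPKM (Ifnz in ND 1). A ligand made by few cells could fall under this level. Ifnar1, the receptor chain (chromosome 16), was at 11.2, 10.3 and 10.3 FPKM in HCD tumours and at 11.4, 11.4 and 11.3 FPKM in ND tumours. All HCD libraries lay below all ND libraries, as they did in 6.13% of all tested genes, by a log2 difference of -0.10 (adjusted p = 0.794). Jak1, the kinase at the receptor, averaged 16.8 ± 2.02 FPKM in HCD and 16.2 ± 0.773 FPKM in ND (SD, n = 3 each).

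Of the 12 tested genes that induce interferon, 10 had a higher mean in HCD and 0 were called. Tmem173, which encodes the DNA-pathway adaptor STING, averaged 39.9 ± 2.94 FPKM in HCD and 40.3 ± 1.58 FPKM in ND, and Irf1, an interferon-inducible factor, 38.0 ± 6.62 and 34.8 ± 7.98 FPKM in HCD and ND (SD, n = 3 each). Ikbke, a kinase that phosphorylates Irf3 and Irf7, had the lowest p of these, at a difference of -0.15 (adjusted p = 0.794). Among 9 tested negative regulators, 7 had a higher mean in HCD and 0 were called. Socs3, a feedback inhibitor of cytokine receptors, had 16.5, 21.8 and 18.6 FPKM in HCD tumours and 28.5, 18.1 and 30.9 FPKM in ND tumours, so ND 1 was high here and not low. Samhd1, which degrades nucleotides, differed by 0.33, with ND 1 lowest.

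A further list of interferon-stimulated genes outside the 40 ran alongside them. Of 44 tested, 35 had a higher mean in HCD, with a median difference of 0.10 and 0 called. ND 1 was lowest for 36 and HCD 2 highest for 31 of the 44. Lgals9, which encodes galectin 9, had 32.5, 38.1 and 39.6 FPKM in HCD tumours and 25.4, 32.2 and 31.1 FPKM in ND tumours. Its difference was 0.30 (unadjusted p = 0.0375, adjusted p = 0.794 by limma), with no overlap by a narrow margin. Of the 44 genes, 1 had all HCD libraries above all ND libraries and 1 had an unadjusted p under 0.05. The shares over all tested genes were 5.98% and 5.88%. Ifitm2 and Ly6e, the most abundant of that list, differed by -0.01 and 0.04. Genes on the interferon gamma side had 13 of 15 means higher in HCD, with a median of 0.33 and 0 called. Here too ND 1 was lowest for 13 and HCD 2 highest for 13 of the 15. Gbp2, an interferon-induced GTPase, had 145, 308 and 186 FPKM in HCD tumours and 80.6, 169 and 202 FPKM in ND tumours. Cd74 and Psmb8 differed by 0.64 and 0.35 (adjusted p = 0.794 each).

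Most markers of macrophages, T cells, NK cells, conventional dendritic cells and endothelium had the same lowest and highest tumours as most members. B cell markers did so in their sum but not gene by gene, and neutrophil and hepatoma markers did not. The summed level of 10 macrophage markers was 619, 1034 and 438 FPKM in HCD 1 to HCD 3 and 277, 631 and 520 FPKM in ND 1 to ND 3; 8 of the 10 had their lowest value in ND 1 and 9 their highest in HCD 2. For 8 T cell markers the sums were 38.7, 55.6 and 23 FPKM in HCD and 7.4, 27.8 and 32.5 FPKM in ND, with ND 1 lowest and HCD 2 highest for all 8. The sums of 5 endothelial markers were 59.2, 106 and 59.9 FPKM in HCD and 49.2, 57.9 and 62 FPKM in ND, with HCD 2 highest for 5 and ND 1 lowest for 4 of them. For the 5 B cell markers the sums were 25.4, 41.6 and 4.35 FPKM in HCD and 2.76, 22.7 and 5.99 FPKM in ND, and HCD 2 was highest for 1 of the 3 tested. Of 3 tested NK cell markers ND 1 was lowest and HCD 2 highest for all 3, and of 4 tested conventional dendritic cell markers ND 1 was lowest for 4 and HCD 2 highest for 3. Ptprc, the common leukocyte antigen, had a ratio of HCD 2 to ND 1 of 3.44, above that of every member. Plasmacytoid dendritic cells are known as strong interferon producers, and 5 of 7 of their markers, Siglech among them, lay below the level for testing, at means of at most 0.273 FPKM; the other two were Ly6d and Cox6a2, and Cox6a2 is also a muscle gene. None of the markers in these lists was at 0 in all libraries. Neutrophil markers went another way, with sums of 39.2, 39.6 and 38.4 FPKM in HCD and 96.3, 40 and 101 FPKM in ND. Most hepatoma markers were present in every tumour. Alb, serum albumin, averaged 1439 ± 250 FPKM in HCD and 1375 ± 155 FPKM in ND (SD, n = 3 each). Apoa2 and Serpina1a, however, had means of at most 0.298 FPKM, and Serpina1a was at 0 in HCD 3. The 8 hepatoma markers summed to 1967, 1563 and 2203 FPKM in HCD 1 to HCD 3. In ND 1 to ND 3 they summed to 2070, 1756 and 1718 FPKM, so HCD 2 was lowest. Of the 6 tested, ND 1 was lowest for 0 and HCD 2 highest for 0. Of 5 fibroblast markers, ND 1 was lowest for 0 and HCD 2 highest for 4. The fibroblast sums were 998, 859 and 805 FPKM in HCD and 1076, 891 and 883 FPKM in ND. Most of each sum was Dcn, the fibroblast marker that was not highest in HCD 2. Dcn was at 908, 682 and 734 FPKM in HCD and 914, 807 and 774 FPKM in ND. The part of leukocyte, endothelial, fibroblast and hepatoma cell content in the interferon-response values was not tested.

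**Figure D5:**
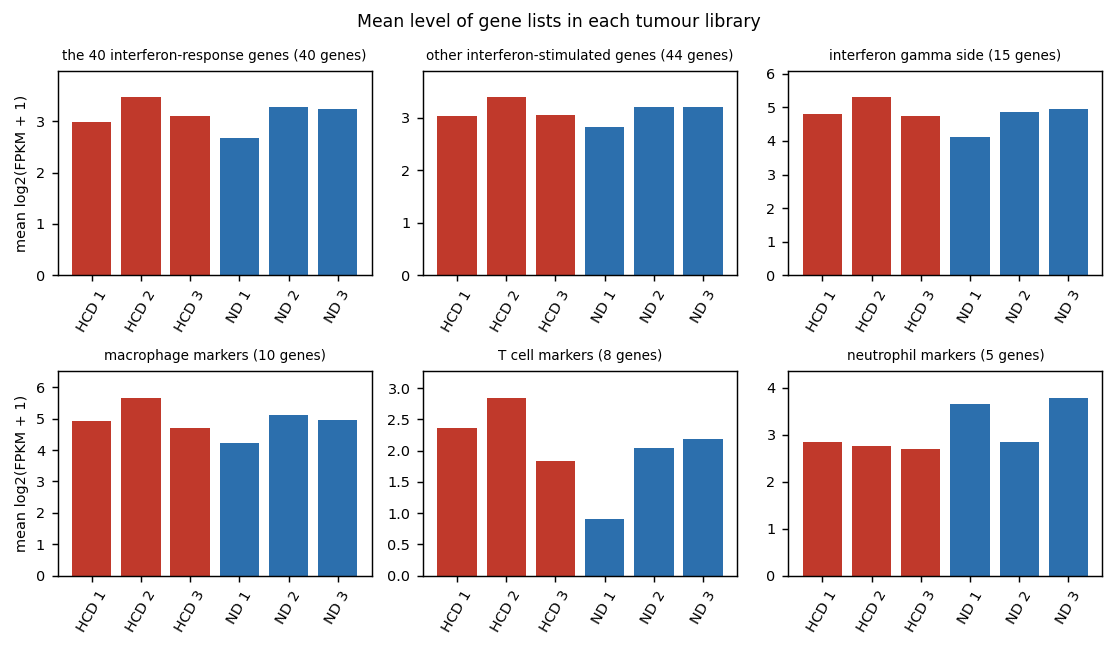
Mean log2(FPKM + 1) of 6 gene lists in each tumour library (bars from 0; tested genes only), HCD in red and ND in blue. The 40 genes stand at 2.98, 3.47 and 3.10 in HCD 1 to HCD 3 and at 2.68, 3.29 and 3.25 in ND 1 to ND 3, with ND 1 lowest and HCD 2 highest as for macrophage and T cell markers, while neutrophil markers are highest in ND 1 and ND 3.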

How the data were processed

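Bulk RNA sequencing of 6 tumours was used, 3 per diet, grouped by title. The authors deposited FPKM values for every gene and sample, per the file headers. CASAVA 1.8, TopHat2 2.0.9, HTSeq, edgeR and mm10 are listed in the submitters' processing notes, with no role; the annotation and use of strand are not given in the sources used here. Log2(FPKM + 1) values of the 13417 genes averaging at least 0.5 FPKM were fitted with limma 3.58.1 (R 4.3.3), with diet as the only term and a variance trend, two-sided, with Benjamini-Hochberg adjustment over all of them at 0.05. This scale understates changes of low genes. From the steps between values, libraries held 20351637 to 26228073 fragments, 98.7% of tested genes gave whole reads (within 0.02), and 1 FPKM at 2 kb stood for 40.7 to 52.5 reads. Correlations between libraries were 0.9596 to 0.9864.

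The members and all lists were chosen with earlier results of these data known. Values in every library are given for the 2 most abundant genes and the largest difference of each role group, and for genes whose diets do not overlap; Ddx58 was added after its values were seen. Of other pathway lists, the 2 most abundant genes and the lowest p are named, with others as values; 1 gene of the receptor list is not reported here. Positions are from GENCODE M21 (GRCm38, the assembly of mm10). Alternatives were a pseudocount of 0.1, other filters and scalings, a replicate block, libraries left out, a 2-fold minimum and limma-voom on recovered reads.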

Additional observations from a re-analysis of the deposited data

How the results depend on the processing

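The count of genes called over all genes was 0 in each direction under a pseudocount of 0.1, no filter, a filter of 1 FPKM in 3 libraries, both scalings, a 2-fold minimum, limma-voom and the replicate block; leaving out 1 library gave 0 to 1 gene lower, the 1 being S100a9 without ND 2. The titles number the tumours 1 to 3 in both diets and do not say whether equal numbers pair tumours. The deviations of same-numbered libraries correlated at -0.19, 0.142 and 0.0588, and no library correlated best with its own number. With 3 libraries per diet these correlations cannot decide whether the numbers pair the tumours. With the replicate block 0 genes and 0 members were called, the median stayed at 0.13, and 1 member had an unadjusted p under 0.05. No setting called a member. Under other scalings the median was 0.12 and 0.11. The signs of Mx1 and Dhx58 turned with median-ratio scaling (-0.0012 and -0.00056), upper-quartile scaling (-0.01 each) and limma-voom (-0.0023 and -0.01). The number of members higher in HCD, 33, was 12 to 35 with 1 library left out, and 3 without ND 1 and HCD 2.

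With 1 library left out, differences ran from -0.15 to 0.29 for Ifit1, -0.03 to 0.48 for Ifit2, -0.35 to 0.21 for Ifit3, -0.13 to 0.42 for Isg15, -0.11 to 0.14 for Mx1, -0.26 to 0.05 for Oas1g, -0.26 to 0.13 for Oas2, -0.12 to 0.41 for Oas3, -0.19 to 0.07 for Oasl1, -0.17 to 0.24 for Oasl2, -0.10 to 0.39 for Rsad2, -0.11 to 0.43 for Irf7, -0.02 to 0.20 for Irf9, -0.10 to 0.31 for Ifi44, -0.16 to 0.14 for Dhx58, -0.18 to 0.33 for Xaf1, -0.05 to 0.52 for Cmpk2, -0.17 to 0.39 for Zbp1, -0.15 to 0.21 for Trim30a, -0.16 to 0.17 for Herc6, -0.11 to 0.34 for Samd9l, -0.02 to 0.12 for Eif2ak2, -0.01 to 0.26 for Adar and -0.10 to 0.27 for Ifi204.

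With 1 library left out, differences that kept their sign ran down to 0.02 for Bst2, 0.0037 for Stat2, 0.01 for Parp14, 0.01 for Dtx3l and 0.07 for Rtp4 and Ifi27l2a.

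Without ND 1 and HCD 2, a choice that lowers most differences by construction, the median was -0.26, and signs turned for Ifit1 (-0.39), Ifit2 (-0.29), Ifit3 (-0.58), Isg15 (-0.32), Mx1 (-0.17), Oas3 (-0.36), Oasl2 (-0.34), Rsad2 (-0.30), Irf7 (-0.37), Irf9 (-0.13), Stat2 (-0.18), Ifi44 (-0.30), Ifih1 (-0.02), Dhx58 (-0.30), Rtp4 (-0.18), Xaf1 (-0.35), Cmpk2 (-0.22), Bst2 (-0.08), Zbp1 (-0.43), Ifi35 (-0.02), Parp9 (-0.06), Parp14 (-0.23), Dtx3l (-0.16), Trim25 (-0.0037), Trim30a (-0.33), Herc6 (-0.36), Samd9l (-0.29), Eif2ak2 (-0.02), Adar (-0.07) and Ifi204 (-0.25). Leaving out ND 2 and HCD 1 raises most differences by construction. Signs then turned for Mx2 (0.01), Oas1a (0.10), Oas1b (0.03), Oas1g (0.07), Oas2 (0.15) and Oasl1 (0.11). The cause was not tested. With these pairs left out each diet has 2 tumours. A difference below the half-width of its unadjusted interval could not be called, and exceeding it was not enough for a call.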

Other observations

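Ifitm1, of the same family as Ifitm3, was high in other tumours than most interferon-stimulated genes; it was picked with its values in view. Its level was 3.88, 9.57 and 8.10 FPKM in HCD 1 to HCD 3, against 20.4, 4.73 and 19.9 FPKM in ND 1 to ND 3. Its log2 difference was -0.82 (95% interval -2.21 to 0.58, limma adjusted p = 0.795), the lowest of the 44 tested genes in that list. The high libraries were ND 1 and ND 3. S100a9, a calcium-binding protein abundant in neutrophils, was high in the same libraries, at 18, 20.4 and 19.9 FPKM in HCD tumours and 61.2, 19.1 and 60.2 FPKM in ND tumours. ND 1 was therefore the lowest library for most interferon-response genes and the highest for Ifitm1. Whether neutrophils carried the Ifitm1 transcripts was not tested.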
